A study of Mus musculus with 18 samples.

Results

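Gene expression was measured in dermal papilla cells (DP), a cluster of mesenchymal cells that instructs the hair follicle, after Nr3c1, the gene of the glucocorticoid receptor (GR), was deleted in the dermal mesenchyme of mice. The comparison uses 4 of the 18 libraries of the series, 2 GR KO and 2 Control libraries, chosen by their labels alone. GR KO mice had the genotype Pdgfra-CreER; GR fl/fl, strain 129/C57BL/6, female, and were injected with tamoxifen intraperitoneally for 6 days. Control mice were labelled wild type, of the same strain and sex, and received the same tamoxifen course. The groups therefore share tamoxifen and differ in the Cre transgene as well as in GR, and the part of the transgene could not be told apart from that of the deletion. Pdgfra is expressed in dermal mesenchyme in general, so that Cre driven by it is not restricted to DP. The labels give neither the age of the mice nor the exon that is flanked by loxP sites. They also do not say whether the 2 libraries of a group came from separate mice or pools, and p-values then measure only the spread between these libraries. DP were purified by flow cytometry. The remaining 4 DP libraries of the series came from wild type female C57BL/6 mice after a sham operation (Sham) or adrenalectomy (ADX), which removes the adrenal source of corticosterone. They share the estimate of the spread and serve a comparison of both effects.

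GR is a nuclear receptor that waits in the cytoplasm in a complex with chaperones until it binds corticosterone, the main glucocorticoid of mice. It then enters the nucleus, binds glucocorticoid response elements (GRE) as a dimer and activates nearby genes, and it represses inflammatory genes largely by interfering with other transcription factors. In skin, glucocorticoids are known to restrain inflammation and collagen synthesis. DP signal to the hair follicle stem cells with ligands and inhibitors of the WNT, BMP, FGF, IGF and other pathways.

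Examples of promoters from these groups of genes are shown first, as the windows from 250 bases before to 50 bases after a start site given by RefSeq on GRCm38.p6. They belong to 3 glucocorticoid-induced genes that fell in GR KO and to Hmgcs1, a gene of cholesterol synthesis that rose. Fallen or risen genes of these groups without a match to the letters named below were passed over, and at most 3 genes per group were shown. RefSeq lists 3 starts for Tsc22d3, of which the first with a match is shown. Capitals mark a GRE hexamer (AGAACA, here read on the opposite strand as TGTTCT) in Tsc22d3, chrX:140600473-140600772 on the minus strand, 185 bases before the start. In Galnt15, chr14:32028853-32029152 on the plus strand, they mark a GRE core (ACANNNTGT) 12 bases after the start, and in Map3k6, chr4:133240568-133240867 on the plus strand, a GRE core 179 bases before it. In Hmgcs1, chr13:119690101-119690400 on the plus strand, they mark 2 copies of the core of the sterol response element (TCACNCC), 220 and 137 bases before the start.
Tsc22d3: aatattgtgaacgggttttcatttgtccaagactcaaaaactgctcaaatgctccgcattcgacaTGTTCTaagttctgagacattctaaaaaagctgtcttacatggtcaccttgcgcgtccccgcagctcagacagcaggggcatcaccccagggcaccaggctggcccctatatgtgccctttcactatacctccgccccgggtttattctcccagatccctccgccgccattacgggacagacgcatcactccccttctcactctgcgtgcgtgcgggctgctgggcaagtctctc
Galnt15: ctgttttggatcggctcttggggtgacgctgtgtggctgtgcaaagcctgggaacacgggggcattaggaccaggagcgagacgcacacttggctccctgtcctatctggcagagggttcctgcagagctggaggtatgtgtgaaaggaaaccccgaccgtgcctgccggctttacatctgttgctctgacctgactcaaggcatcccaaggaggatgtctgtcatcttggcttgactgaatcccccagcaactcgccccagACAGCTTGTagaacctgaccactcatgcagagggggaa
Map3k6: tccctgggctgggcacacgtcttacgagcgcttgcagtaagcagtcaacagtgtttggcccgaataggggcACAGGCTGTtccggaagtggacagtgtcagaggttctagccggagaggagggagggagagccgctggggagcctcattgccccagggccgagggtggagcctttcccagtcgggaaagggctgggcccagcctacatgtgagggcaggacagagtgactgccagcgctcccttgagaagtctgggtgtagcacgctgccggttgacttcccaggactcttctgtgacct
Hmgcs1: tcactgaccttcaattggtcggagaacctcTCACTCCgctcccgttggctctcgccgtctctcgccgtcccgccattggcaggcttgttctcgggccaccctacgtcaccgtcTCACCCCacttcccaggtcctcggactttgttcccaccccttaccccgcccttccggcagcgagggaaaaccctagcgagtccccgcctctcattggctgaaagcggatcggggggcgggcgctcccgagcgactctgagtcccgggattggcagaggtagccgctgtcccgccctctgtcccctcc
Both strands were searched in 14281 promoters of tested genes. The GRE hexamer stood in 16.9% of them, the GRE core in 6.04% and the sterol core in 18.9%. Among the glucocorticoid-induced genes with a promoter, 7 of 38 held the hexamer and 7 of 38 the core (18.4% each). Of the 10 that fell and have a promoter, 1 held the hexamer and 3 the core. Of all genes that rose, 12.3% held the hexamer and 10.8% the GRE core, and of those that fell 12.3% and 5.26%. The sterol core stood in 4 of 17 promoters of the cholesterol genes (23.5%) and in 1 of the 3 that rose, against 24.6% of all risen and 21.1% of all fallen genes. It also stood in 11 of 38 promoters of glucocorticoid-induced genes (28.95%) and in 4 of the 10 that fell. The hexamer stood in 4 of 17 cholesterol promoters and in 1 of the 3 that rose. Capitals mark only the motif searched for the gene's own list. Unmarked, Hmgcs1 also holds TGTTCT, and Tsc22d3 and Galnt15 hold the sterol core. A match is a description of letters, not of a bound site, and GR also binds far from start sites.

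The deletion was checked on Nr3c1 itself (chromosome 18). Its level was 671 and 978 CPM (counts scaled to an equal library size) in Control and 137 and 111 CPM in GR KO, and the groups did not overlap. Salmon, which assigns reads to annotated transcripts, placed most of them on 2 transcript models. The longer model of 6436 bases held 4600.2 and 6481.5 estimated reads in Control against 390.8 and 482.6 in GR KO. The shorter model of 1891 bases held 3760.0 and 3973.9 against 824.2 and 745.2 reads. Both models were lower in each GR KO library. Less abundant models lay in the other direction, one of 4989 bases with 64.9 and 0 reads in Control against 293.3 and 136.3 in GR KO, and one of 2382 bases with 14.8 and 5.2 against 148.4 and 32.3 reads. In bulk libraries fewer cells with the gene and less RNA per cell cannot be told apart, and this holds for all results that follow.

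The label of the cells was set beside 48 genes known from DP. All 48 had reads in each of the 4 libraries. So had all 14 macrophage, 12 endothelial and 19 dermal fibroblast markers tested, so that presence of reads does not check the label. Wif1, an inhibitor of WNT, stood at 505, 662, 433 and 927 CPM (Control replicates 1 and 2, then GR KO replicates 1 and 2, the order of all 4 values given together). The 48 genes, Igfbp3 among them, summed to 31169, 44974, 16316 and 12560 CPM. Lepr, the leptin receptor, stood at 612, 962, 644 and 612 CPM. Sox2, a transcription factor of the DP of some hair types, had a low level, at 4.02, 6.23, 7.79 and 4.12 CPM. Crabp1, a retinoic acid binding protein of DP, was lower in both GR KO libraries (1854, 3460, 495 and 958 CPM) without passing the test.

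Some libraries stood apart. GR KO replicate 1 held more RNA of macrophages and skeletal muscle, with summed levels of 3849 CPM over 14 macrophage markers and 531 CPM over 13 muscle markers. The other libraries held 542, 288 and 59.1 CPM and 59.3, 38.7 and 39.4 CPM. The muscle markers Myh4 and Mybpc2 were at 0 in both Control libraries and in GR KO replicate 2, and no macrophage marker was at 0. Markers of differentiated epidermis ranged from 947 to 1993 CPM in Control and from 59.8 to 710 CPM in GR KO, and dermal fibroblast markers from 18758 to 27572 and from 58244 to 66164 CPM. Mitochondrial transcripts took 2.89% to 3.62% of the counts in Control and 1.73% to 2.22% in GR KO. A ribosomal RNA, CT010467.1, was singled out after its values were seen, and stood at 29667, 43992, 8516 and 11281 CPM. The 28 heat shock and ER stress genes, singled out likewise, summed to 8946, 23145, 6676 and 8037 CPM, highest in Control replicate 2. Total counts were 11953162 to 13941628 in these 4 libraries, and replicates correlated at 0.962 in Control and 0.947 in GR KO (log2 CPM across genes). The part of these differences in the results was not tested. Each group of results is followed by its values without each library.

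Of 23463 genes tested, 361 changed after GR deletion (1.54%), 180 higher (0.767%) and 181 lower (0.771%) in GR KO, at an adjusted p below 0.05 in the quasi-likelihood test of edgeR. Values below are log2 fold changes of GR KO over Control. Of the 361 genes 325 are protein-coding, and in all 361 the GR KO libraries lay outside the range of the Control libraries. Over all genes tested both GR KO libraries lay above both Control libraries for 31.6% and below them for 20%. The median of all genes was 0.17. DESeq2 called 1554 genes (6.62%), and 3574 had an unadjusted p under 0.05 in edgeR (15.2%). With median-of-ratios scaling 134 genes rose and 247 fell, with a median of all genes of 0.07. The number rested on single libraries. It was 226 without Control replicate 1 and 19 without Control replicate 2, of which 9 were among the 361. Without GR KO replicate 1 or 2 it was 192 or 213. Stc2, Angptl4, Lor and Adrb3 were the 4 genes called under each of the 12 alternatives tried.

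**Figure D1:**
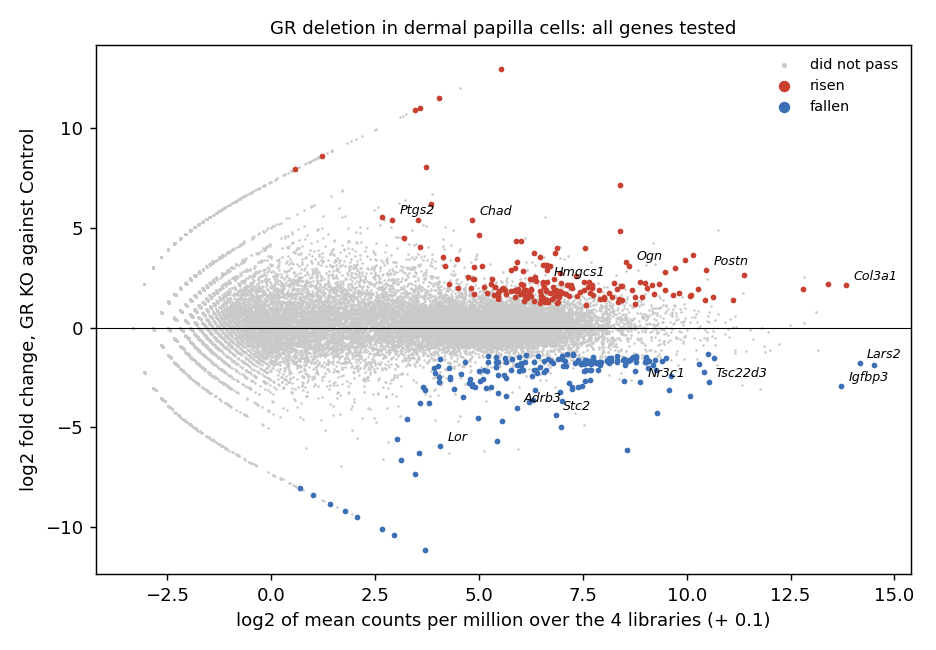
Log2 fold change of GR KO over Control (vertical axis) against the log2 mean level over the 4 libraries in CPM (horizontal axis, log scale) for the 23463 genes tested. Red points are the 180 genes that rose, blue points the 181 that fell and grey points the others. The curved rows of points at the edges are genes with reads in 1 of the groups only.

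Most genes known to be induced by glucocorticoids had lower values. Of the 43 tested, 13 fell, none rose, 30 did not pass, and 35 had lower values, with a median of −1.17. The other 8 had higher values, among them Sgk1 and Dusp1, named after their values were seen. DESeq2 called 22 of the list lower and 2 higher, against 6.62% of all genes called. Among all genes 0.771% fell. The 13 were Tsc22d3, Rasd1, Errfi1, Angptl4, Foxo3, Galnt15, Cebpd, Fkbp5, Per1, Klf9, Mt1, Map3k6 and Gadd45a. Summed over the list the level was 12744, 15065, 7179 and 6661 CPM. The GR KO libraries lay below both Control libraries for 31 genes of the list and above them for 5. Over all genes tested they lay below them for 20% and above them for 31.6%.

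The largest of these falls was in Galnt15, an enzyme that starts O-linked sugar chains, at 215 and 274 CPM in Control and 11.1 and 4.36 CPM in GR KO (−4.98, SE 0.75). Rasd1, a Ras-like protein named for its induction by dexamethasone, stood at 1001 and 1368 CPM against 94.1 and 29.3 CPM (−4.26, SE 0.61). Tsc22d3, which encodes the leucine zipper protein GILZ, an inhibitor of inflammatory transcription factors, stood at 2381 and 2754 CPM against 311 and 459 CPM. In none of the 3 did the groups overlap, which holds for all 361 called genes. Errfi1, a feedback inhibitor of the EGF receptor, fell by 2.42 (989 and 1687 CPM against 352 and 149 CPM). Angptl4, a secreted inhibitor of lipoprotein lipase, stood at 346 and 302 CPM against 54.9 and 44.8 CPM (−2.70, SE 0.30). Fkbp5, a chaperone of the unliganded receptor, and Cebpd, a transcription factor, stood at 218 and 282 against 54.6 and 18.9 CPM and at 268 and 402 against 73.5 and 79.4 CPM. Foxo3, a forkhead factor of stress resistance, fell by 1.94 (98.6 and 106 CPM against 24.5 and 28.7 CPM). Per1, a repressor of the circadian clock, fell by 1.75 (111 and 88.7 CPM against 27.3 and 31.9 CPM). These calls had edgeR adjusted p-values of 0.0165 to 0.0465, and Nr3c1 had 0.0212 at a change of −2.73 (SE 0.38). Without Control replicate 2, 1 of the 10 calls was left, that of Angptl4, and the adjusted p of the others was 0.0502 to 0.22. The number left was 9 without Control replicate 1, 7 without GR KO replicate 1 and 5 without GR KO replicate 2 (adjusted p 0.0524 to 0.138 for those lost).

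**Figure D2:**
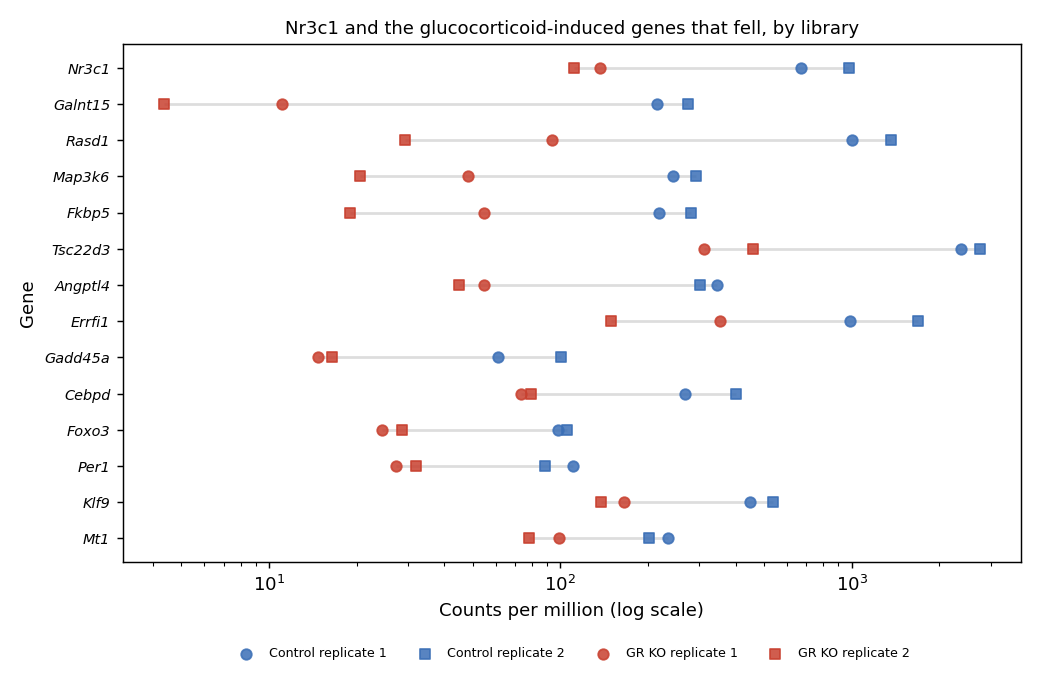
Level of Nr3c1 and of the 13 glucocorticoid-induced genes that fell, in CPM on a log axis, with 1 point per library (blue Control, red GR KO, circles replicate 1, squares replicate 2). For each gene both red points lie to the left of both blue points.

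Few other genes of proteins that handle corticosteroids passed in edgeR. Of 16 such genes tested, 2 fell, which were Nr3c1 and Fkbp5, and none rose, while 0.771% of all genes fell. At an unadjusted p under 0.05 there were 5 of the 16, and DESeq2 called 4 lower and none higher. The mineralocorticoid receptor Nr3c2, which also binds corticosterone, stood at 18.3, 12.1, 14.6 and 22.1 CPM, so that the groups overlapped. Hsd11b1, the enzyme that regenerates active glucocorticoid, stood at 152, 249.5, 125 and 148 CPM.

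Genes of inflammation and of prostanoid signalling moved in both directions. Of 20 prostaglandin and lipid mediator genes 2 rose and 1 fell, against 0.767% risen and 0.771% fallen over all genes. The median of that list was 0.84, or −0.20 without GR KO replicate 1. Of 27 inflammatory genes that glucocorticoids are known to repress, 3 rose (Ptgs2, Ccl2 and Icam1), none fell, and 23 had higher values (median 1.94, against 0.767% risen and a median of 0.17 over all genes). Ptgs2, the inducible cyclooxygenase, stood at 0.473 and 0.186 CPM in Control and 23.5 and 5.71 CPM in GR KO (5.41, SE 1.10). Ptgs1, the constitutive cyclooxygenase, went the other way, from 274 and 359 to 58.0 and 25.6 CPM (−2.92, SE 0.43). The prostaglandin transporter Slco2a1 rose with Ptgs2 (15.3 and 6.6 CPM against 241 and 57.4 CPM). Ccl2, a chemokine for monocytes, rose from 23.5 and 15.1 to 239 and 105 CPM. Icam1, an adhesion molecule for leukocytes, rose from 24 and 13.9 to 111 and 222 CPM. Cfb, complement factor B, stood at 17 and 14.9 CPM against 195 and 230.1 CPM (3.73, SE 0.55). Lpar1, a receptor for lysophosphatidic acid, stood at 59.1 and 59.3 CPM against 239 and 241 CPM (2.02, SE 0.31). The 7 edgeR adjusted p-values were 0.0212 to 0.0475. Ccl2, Ptgs2 and Slco2a1 were highest in GR KO replicate 1, the library with the most macrophage RNA, while Icam1 and Cfb were highest in replicate 2, which had the least.

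No call of these 7 was left without Control replicate 2 (edgeR adjusted p 0.0711 to 0.419). Without Control replicate 1 those of Ptgs1 and Cfb were left, without GR KO replicate 1 those of Ptgs1, Lpar1, Cfb and Icam1, and without GR KO replicate 2 all but that of Icam1 (adjusted p 0.0596 to 0.259 for those lost). With an offset per library for GC content and length of transcripts (the GC and length offset) 2 were left, and in a fit of the 4 libraries alone also 2. None of the 3 calls of the inflammatory list was left in either fit. The median of the list was 1.21 without GR KO replicate 1. Of 27 interferon response genes none passed in edgeR, with 23 higher and a median of 0.75, while 10 had an unadjusted p under 0.05 and DESeq2 called 6.

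Many genes of the extracellular matrix rose. Of 37 collagens 7 rose and none fell, of 28 collagen processing enzymes 2 rose, of 56 glycoproteins and proteoglycans 15 rose, and of 33 proteases and their inhibitors 8 rose. None of these 4 lists had a gene that fell. Their medians were 1.07, 1.12, 1.53 and 1.30. Over all genes tested 0.767% rose and 0.771% fell, with a median of 0.17. The summed level of the collagens was 23090, 14753, 68939 and 67311 CPM, and that of the glycoproteins and proteoglycans 23622, 19706, 56468 and 57215 CPM. The dermal fibroblast markers, which share Col3a1 and other matrix genes with these lists, were higher in the same libraries (18758 to 27572 against 58244 to 66164 CPM). Of 19 of them 2 rose, Cd34 and Col3a1, with a median of 1.12. Their part in the matrix result was not tested.

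**Figure D3:**
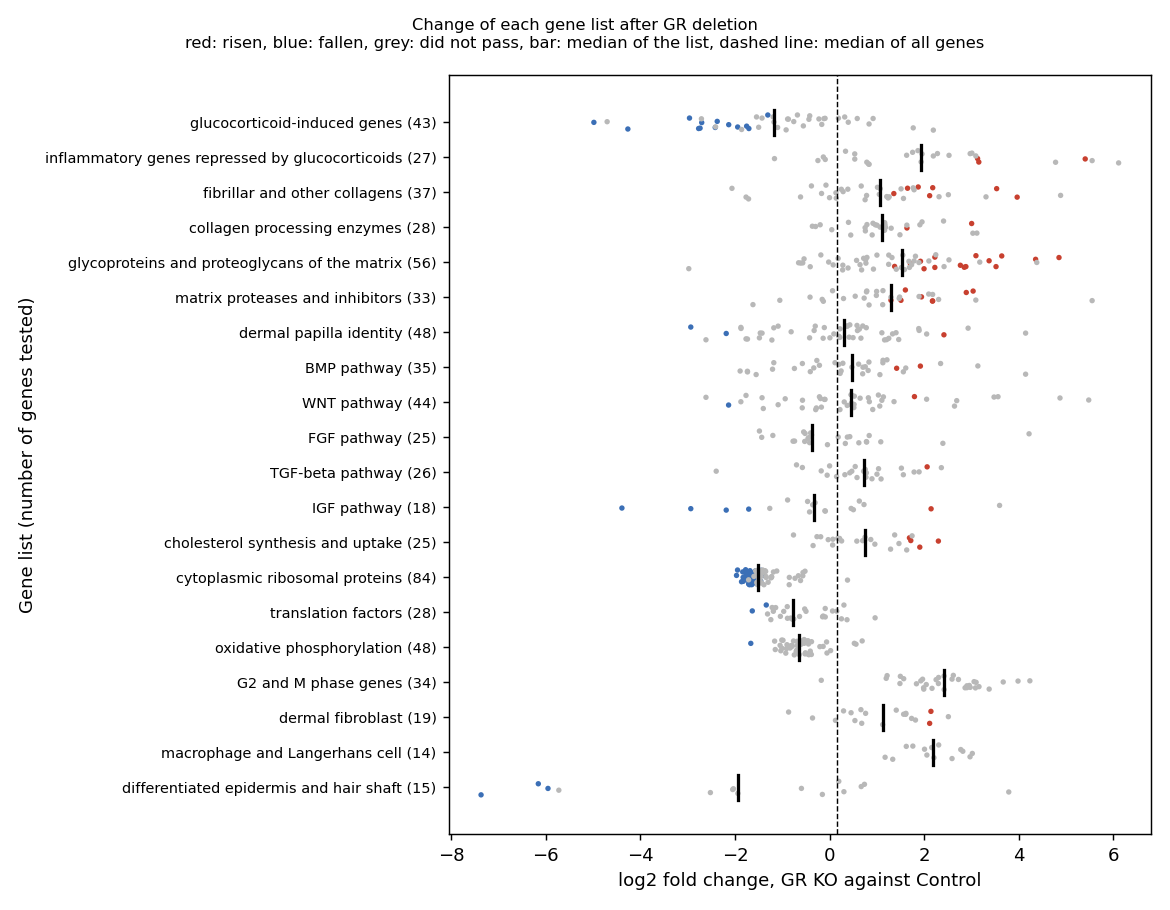
Log2 fold change of GR KO over Control for the genes of 20 lists (1 point per gene, red risen, blue fallen, grey did not pass), with the number of genes tested in brackets. Bars are the list medians and the dashed line is the median of all genes, 0.17. The matrix lists lie to the right of it, the glucocorticoid-induced genes and the ribosomal proteins to the left.

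Chains of the large collagen fibrils were among the 7 that rose. Col3a1 stood at 7180 and 3832 CPM in Control and 25211 and 22559 CPM in GR KO (2.12, SE 0.39). Col1a2 stood at 5186 and 2580 CPM against 16252 and 18990 CPM. Col1a1, the other chain of collagen I, stood at 3292 and 1008 CPM against 11524 and 13018 CPM and did not pass (2.51, edgeR adjusted p = 0.056). Col5a1 and Col5a2, the chains of collagen V, which starts fibrils, rose by 1.65 and 1.88, with Col5a2 at 317 and 292 CPM against 1212 and 1019.7 CPM. Col6a1 of the microfibrils around cells rose by 1.36. Col8a2 and Col11a1, at 10.5 to 17.6 CPM in Control, had the largest changes of the 7 (3.97 and 3.53). Col24a1 had a larger value, 4.89, and did not pass (edgeR adjusted p = 0.0976). Col1a1 and Col24a1 were named after their values were seen. Col11a1 reached 117 and 208 CPM. Adamts2, which cuts the amino-terminal propeptide from procollagen, stood at 241 and 132 CPM against 2192 and 804 CPM (3.01, SE 0.49). P4ha2, a prolyl hydroxylase of collagen, rose by 1.64, and Txndc5, a disulfide isomerase of the endoplasmic reticulum, by 1.94 (133 and 134 CPM against 587 and 437 CPM). Lox, which crosslinks collagen, stood at 59.6 and 47.9 CPM against 664 and 214 CPM and did not pass (edgeR adjusted p = 0.0556). The called genes had edgeR adjusted p-values of 0.0212 to 0.0463. In a fit of the 4 libraries alone 1 of these 10 calls was left, that of Col11a1 (edgeR adjusted p 0.0526 to 0.105 for the others). No call of these 10 was left without Control replicate 2 (adjusted p 0.18 to 0.535). There were 3 left without Control replicate 1, 4 without GR KO replicate 1, 6 without GR KO replicate 2, and with the GC and length offset 3, with adjusted p-values of 0.0539 to 0.265 for those lost.

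The glycoproteins and proteoglycans that rose included proteins of elastic fibres and fibril-binding proteoglycans. Mfap4, a microfibril protein, stood at 226 and 111 CPM in Control and 2267 and 1934 CPM in GR KO (3.64, SE 0.53). Fbln5, which assembles elastic fibres, stood at 116 and 99.2 CPM against 446 and 563 CPM (2.23, SE 0.31). Fbn1, the microfibril protein fibrillin, rose by 2.23. The replicates of these genes lay closer to each other than to the other group. Ogn, a small leucine-rich proteoglycan, was nearly equal within groups, at 87.6 and 76.4 CPM against 697 and 705 CPM (3.10, SE 0.38). Its relatives Omd and Bgn rose by 2.00 and 1.38, and Chad, a cell-binding relative, went from 1.81 and 0.837 CPM to 74.4 and 37.5 CPM. Dse, which makes dermatan sulfate, rose by 2.05 (39.6 and 34.6 CPM against 159.8 and 147 CPM).

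Several other matrix proteins of the list are known as matricellular, which bind cells without building fibres, and among these some passed and some did not. Postn stood at 267 and 411 CPM in Control and 1898 and 3103 CPM in GR KO (2.88, SE 0.42). Thbs2, an inhibitor of angiogenesis, stood at 181 and 184 CPM against 1903 and 585 CPM. Sparc, which binds collagen, rose by 1.92 and Smoc1 by 4.36. Ccn5 rose by 4.85 (SE 0.94), with a wide spread (39.7 and 5.58 CPM against 1065 and 247 CPM). Tnc and Thbs1 had values of 2.10 and 1.79 and Spp1 one of −2.98, and none of the 3, named after their values were seen, passed (edgeR adjusted p = 0.0879, 0.117 and 0.135). Has2, which makes hyaluronan, stood at 2.52 and 3.07 CPM against 21.5 and 42.8 CPM. Outside the list, to which Chad and Dse do not belong either, Abi3bp and Itgbl1 rose by 2.02 and 3.97, and the cartilage protein Matn1 fell from 14.6 and 22.4 to 0.406 and 1.11 CPM. Of the 17 genes of this and the preceding paragraph, 8 were called in a fit of the 4 libraries alone (edgeR adjusted p 0.0513 to 0.103 for the others). In the fit of all DP libraries the 17 genes had edgeR adjusted p-values of 0.0196 to 0.0485. None of these calls was left without Control replicate 2 (adjusted p 0.0843 to 0.54). Leaving out Control replicate 1 left 6, GR KO replicate 1 left 9 and GR KO replicate 2 left 11, and with the GC and length offset 7, with adjusted p-values of 0.0512 to 0.214 for those lost.

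**Figure D4:**
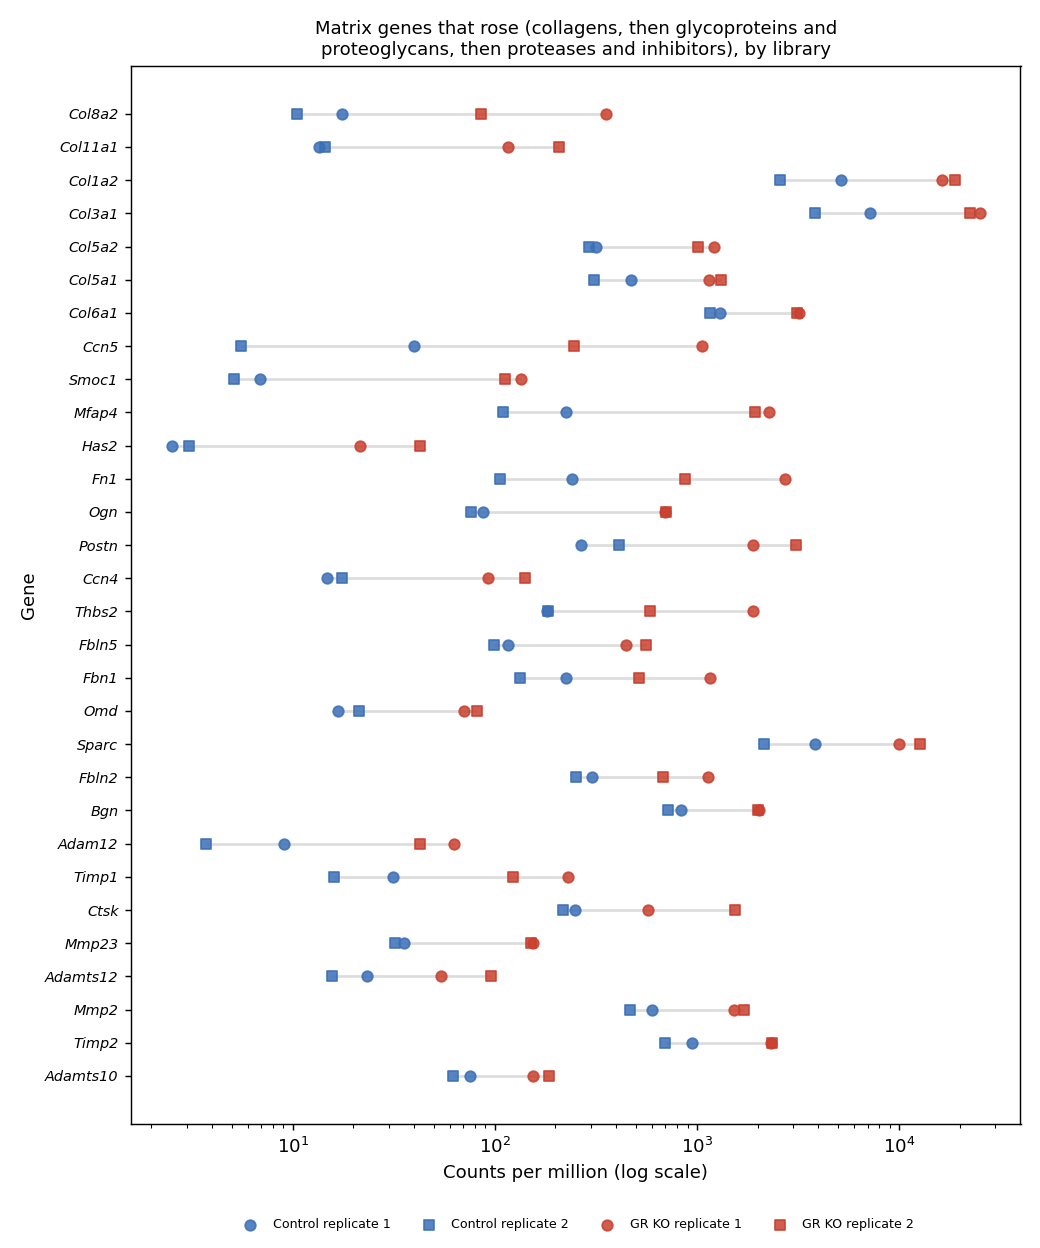
Level of the matrix genes that rose, in CPM on a log axis, with 1 point per library (blue Control, red GR KO, circles replicate 1, squares replicate 2). From the top, the collagens, the glycoproteins and proteoglycans, and the proteases and inhibitors are shown, and both red points of each gene lie to the right of both blue points.

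Matrix-degrading enzymes rose beside their inhibitors. Mmp2, a gelatinase, stood at 598 and 468 CPM in Control and 1529.5 and 1712 CPM in GR KO (1.6, SE 0.32), and Mmp23 at 35.7 and 32.1 CPM against 155 and 151 CPM. The inhibitors Timp1 and Timp2 rose by 2.89 and 1.51, with Timp1 at 31.4 and 16.1 CPM against 229 and 123 CPM. Ctsk, a collagen-cutting cathepsin, rose by 2.18 (251 and 217 CPM against 575 and 1545 CPM). Among metalloproteases with disintegrin domains, Adamts10, Adamts12 and Adam12 rose by 1.30, 1.94 and 3.04. Adamts19 and the carboxypeptidase-like Cpxm1, which are not on the list, rose by 5.55 and 2.06. The edgeR adjusted p-values of the 10 genes were 0.0212 to 0.0492. Of the 10 calls, 2 were left in a fit of the 4 libraries alone, those of Mmp23 and Cpxm1 (edgeR adjusted p 0.0596 to 0.091 for the others). No call was left without Control replicate 2 (adjusted p 0.203 to 0.628). Without Control replicate 1 those of Timp1 and Cpxm1 were left, without GR KO replicate 1 or 2 there were 4 each, and with the GC and length offset 3, with adjusted p-values of 0.0539 to 0.23 for those lost.

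In the IGF pathway, a binding protein, a protease, the inhibitor of that protease family and a ligand fell, while the growth hormone receptor rose. Of 18 genes tested, 4 fell and 1 rose, with a median of −0.33. Over all genes 0.771% fell and 0.767% rose, with a median of 0.17. Igfbp3, which carries IGF in extracellular fluid and is abundant in DP (chromosome 11, 7206086 to 7213923 on GRCm38), stood at 19684 and 28122 CPM in Control and 4352.5 and 1908 CPM in GR KO (−2.93, SE 0.54). Stc2, an inhibitor of the proteases that free IGF from its binding proteins, stood at 171 and 273 CPM against 12.7 and 8.48 CPM (−4.39, SE 0.49). Pappa2, one of those proteases, fell from 655 and 763 to 206 and 106 CPM (−2.18, SE 0.44). The protease, its inhibitor and its substrate were thus all lower in both GR KO libraries. Igf2, a ligand, fell by 1.71 (64.6 and 70.3 CPM against 19.0 and 22.3 CPM), and Ghr rose by 2.15 (56.7 and 45.2 CPM against 269.8 and 182 CPM). None of the other 5 binding proteins tested passed. Igfbp2, named after its values were seen, lay in the opposite direction to Igfbp3, at 24.3 and 19.2 CPM against 200.1 and 326 CPM (3.60, edgeR adjusted p = 0.0714). The edgeR adjusted p-values of the 5 called genes were 0.0165 to 0.0465. Without Control replicate 2 the call of Stc2 was left (adjusted p 0.128 to 0.358 for the others). Of the 5 calls, 2 were left without Control replicate 1, 3 without GR KO replicate 1 and 2 without GR KO replicate 2, and with the GC and length offset those of Igfbp3 and Stc2, with adjusted p-values of 0.0519 to 0.164 for those lost.

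Other niche signals passed in few members in edgeR and in more by DESeq2. Over all genes edgeR called 0.767% higher and 0.771% lower, with a median of 0.17, and 15.2% had an unadjusted p under 0.05. DESeq2 called 6.62% of all genes. Of 48 DP identity genes 1 rose and 2 fell, with a median of 0.30, or −0.09 without Control replicate 1. DESeq2 called 7 of them higher and 10 lower, and 21 had an unadjusted p under 0.05 in edgeR. Of 35 BMP genes 2 rose, of 44 WNT genes 1 rose and 1 fell, of 26 TGF-beta genes 1 rose, and none of 25 FGF, 15 hedgehog, 16 Notch or 20 PDGF and HGF genes passed in edgeR. At an unadjusted p under 0.05 these 4 lists held 4, 3, 2 and 5 genes, and DESeq2 called 2, 1, 1 and 2. For the BMP, WNT and TGF-beta lists the unadjusted counts were 13, 19 and 11, and DESeq2 called 6, 7 and 5 higher and 3, 6 and 1 lower. The median of the WNT list was 0.46, or −0.03 without GR KO replicate 1. Sox18, a transcription factor of DP and endothelium, rose from 20.9 and 26.3 to 134 and 118 CPM (2.42, SE 0.28). Wnt10a, a WNT ligand, fell by 2.13 (136 and 181 CPM against 38.5 and 33.8 CPM), and Dkk3, a relative of the WNT inhibitors, rose by 1.8 (48.0 and 53.4 CPM against 147 and 205 CPM). The extracellular BMP regulators Twsg1 and Fstl1 rose by 1.42 and 1.92, with Fstl1 at 625 and 406 CPM against 2133 and 1774 CPM. Tgfbi, a matrix protein induced by TGF-beta, rose by 2.06 (169 and 94.0 CPM against 529 and 569 CPM). Endothelial markers summed to 158, 60.7, 184 and 47.7 CPM and overlapped between groups.

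Several niche genes differed without passing in edgeR. Fgf10, a growth factor for the follicle epithelium, stood at 163 and 261 CPM in Control and 68.7 and 82.9 CPM in GR KO (−1.48, adjusted p = 0.0699). Sfrp4, a WNT inhibitor, stood at 29.8 and 10.8 CPM against 297 and 157 CPM (adjusted p = 0.0522). Bmpr1a, Skil and Cdon had values of 1.21, 1.89 and 3.42 and adjusted p-values of 0.0823, 0.0539 and 0.0879. Of the 8 TAM ligands and receptors, Pros1 rose, by 1.39 (212 and 172 CPM against 457 and 553 CPM). Gas6, the ligand that the title of the series names, stood at 299 and 356 CPM against 1333 and 607 CPM (1.57, SE 0.38) and did not pass in edgeR, with an adjusted p = 0.0734. Their receptor Axl overlapped between groups (542, 586, 802 and 435 CPM). The 7 called niche genes had edgeR adjusted p-values of 0.0165 to 0.0463, and none of these calls was left without Control replicate 2 (0.0862 to 0.538). The fit without Control replicate 1 left 3, and those without GR KO replicate 1 or GR KO replicate 2 left 2 each, that of Sox18 each time (adjusted p 0.0521 to 0.278 for those lost). The calls of Sox18 and Wnt10a were left with the GC and length offset and in the 4 libraries alone (0.056 to 0.213 for the others). Pros1 was also lost with median-of-ratios scaling (0.0503) and among protein-coding genes only (0.0528).

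Single receptors and channels for hormones and transmitters changed in both directions. Of 27 angiotensin, adrenergic and ion channel genes 3 fell and 1 rose, 16 had higher and 11 lower values, and the median was 0.46, or −0.26 without Control replicate 2. DESeq2 called 4 higher and 5 lower. Over all genes edgeR called 0.771% lower and 0.767% higher, with a median of 0.17, and DESeq2 called 6.62%. Adrb3, a receptor for noradrenaline known from adipocytes, stood at 98.5 and 128 CPM in Control and 9.17 and 4.76 CPM in GR KO (−4.02, SE 0.52). Agtr2, a receptor for angiotensin II, stood at 37.0 and 83.4 CPM against 1.54 and 3.65 CPM (−4.53, SE 0.62). Mc2r, the receptor for corticotropin, stood at 14.4 and 29.9 CPM against 1.95 and 1.27 CPM. The groups did not overlap in any of the 3, as in all 361 called genes. The 6 adipocyte markers, Adrb3 among them, summed to 345, 204, 110.0 and 35.4 CPM, and their part in the Adrb3 result was not tested. Scnn1g, which encodes a chain of the sodium channel of epithelia, fell by 3.0, Stac2, an adaptor of calcium channels, by 3.03, and Kcnj8, a potassium channel also known from pericytes, by 3.21 (174 and 274 CPM against 33.2 and 15.2 CPM). Summed pericyte and smooth muscle markers overlapped between groups (12370.0, 3285, 9404 and 4255 CPM). Calcrl, a receptor for calcitonin gene-related peptide and adrenomedullin, rose from 18.4 and 15.3 to 61.5 and 51.8 CPM. The glutamate receptor Gria1 (1.42 and 3.44 CPM against 101 and 21.6 CPM) and the muscle kinase Musk (0.394 and 0.651 CPM against 40.3 and 4.76 CPM) rose as well and were highest in GR KO replicate 1, the library with muscle RNA. The 9 edgeR adjusted p-values were 0.0192 to 0.0481. Without Control replicate 2 the call of Adrb3 was left (0.0502 to 0.466 for the others). The other fits left 5 without Control replicate 1, 4 without GR KO replicate 1 and 5 without GR KO replicate 2 (0.0728 to 0.567 for those lost). Gria1 and Musk were not called without GR KO replicate 1.

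Other genes with small p-values came from several processes. Pqlc3, a membrane protein of the PQ-loop family, stood at 72.5 and 62.4 CPM in Control and 317 and 348 CPM in GR KO (2.30, SE 0.26), and Dab2, an endocytic adaptor, at 23 and 17.2 CPM against 173 and 186 CPM (3.16, SE 0.41). Sertad4 rose by 2.15 and Coch, the secreted protein cochlin, by 2.66. Bnip3, which mediates removal of mitochondria, fell from 316 and 357 to 70.7 and 84.0 CPM (−2.12, SE 0.28). The kinase Pim3 fell by 2.14, the Src regulator Srcin1 by 2.59 and Lypd1 by 3.75. Txnip, an inhibitor of thioredoxin and of glucose uptake, fell by 1.81 (1816 and 2072 CPM against 568 and 539.9 CPM). The 9 edgeR adjusted p-values were 0.0165 to 0.048. None of the calls was left without Control replicate 2 (0.0604 to 0.358), and 7, 7 and 5 were left without Control replicate 1, GR KO replicate 1 and GR KO replicate 2 (0.0546 to 0.135 for those lost).

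A few genes of cholesterol synthesis rose. Of 25 tested, 4 rose, none fell and 20 had higher values, with a median of 0.74. Over all genes 0.767% rose, with a median of 0.17. The 4 encode enzymes at successive stages of the pathway. Hmgcs1, which feeds the mevalonate pathway, stood at 38.9 and 28.1 CPM in Control and 160.3 and 169.9 CPM in GR KO (2.30, SE 0.27, edgeR adjusted p = 0.0192). Idi1, which makes the isoprenoid building block, rose from 18.8 and 22.4 to 77.8 and 57.7 CPM (1.72, SE 0.35). Sqle, which opens the sterol branch, stood at 28.5 and 31.6 CPM against 116 and 78.2 CPM. Cyp51, a demethylase of sterols, stood at 24.5 and 33.1 CPM against 122 and 93.8 CPM. Of 27 genes of fatty acid and triglyceride metabolism the desaturase Scd2 rose (1.87, edgeR adjusted p = 0.0482). Of these 5 calls none was left without Control replicate 2 (adjusted p 0.145 to 0.359) and that of Hmgcs1 without Control replicate 1 or GR KO replicate 1 (0.086 to 0.306 for the others). Without GR KO replicate 2, 4 were left. That of Hmgcs1 alone was left with the GC and length offset and in a fit of the 4 libraries alone.

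Genes of protein synthesis fell. Of 84 cytoplasmic ribosomal protein genes 42 fell, 83 had lower values, and the median was −1.52. Over all genes 0.771% fell, with a median of 0.17. Their summed level was 30468, 43853, 10369 and 16638 CPM. Rps15a stood at 158 and 259 CPM in Control and 54.2 and 54.1 CPM in GR KO (−1.94, SE 0.30), Rps9 at 734 and 934 CPM against 205 and 315 CPM, and Rpl8 at 517 and 689.8 CPM against 156 and 229.9 CPM. Ribosomal protein genes have near-identical processed copies, so their counts are uncertain. Of 28 translation factors Tpt1 and Eif3f fell (−1.63 and −1.34), and Eef2 had a value of −1.19 and did not pass (edgeR adjusted p = 0.0535). Of 48 genes of oxidative phosphorylation Cox4i1 fell, by 1.66 (793 and 1271 CPM against 306 and 346 CPM), and 44 had lower values. Their median was −0.65, and Cox8a, at −1.15, did not pass (adjusted p = 0.0511).

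Fallen genes had short transcripts, with a median length of 1430 bases against 3193 in risen and 2332 in all tested genes, and a median GC content of 52.8% against 48.7% and 48.4%. With the GC and length offset, no ribosomal protein gene was called, with a median of −1.08 for the list and 83 still lower. The median of the oxidative phosphorylation list was then −0.20. The number of ribosomal protein genes called was 61 without Control replicate 1, 0 without Control replicate 2, 0 without GR KO replicate 1 and 33 without GR KO replicate 2. In a fit of the 4 libraries alone 0 were called, and DESeq2 called 75. Lars2, named for a mitochondrial leucyl-tRNA synthetase, fell by 1.79 (24530.0 and 32221 CPM against 5825 and 10588 CPM). At least 99.4% of its reads lay on 2 transcripts that do not code for the full protein, and the coding transcript held 0, 73.4, 366 and 310.3 reads. The mitochondrial ribosomal RNA mt-Rnr2 stood at 13112, 12046, 4924 and 6709.5 CPM, also lower in both GR KO libraries, and its part in the Lars2 result was not tested. Of Rps15a, Rps9, Rpl8, Tpt1, Eif3f, Cox4i1 and Lars2, with edgeR adjusted p-values of 0.0238 to 0.0485, none was called without Control replicate 2 or GR KO replicate 1 or with the GC and length offset (adjusted p 0.0528 to 0.285). All but Eif3f were called without Control replicate 1, and Rps9, Rpl8 and Lars2 without GR KO replicate 2.

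Clock, immediate early and stress genes passed singly in edgeR and in more members by DESeq2. Over all genes, edgeR called 0.767% higher and 0.771% lower. At an unadjusted p under 0.05 in edgeR there were 10 of 20 clock, 6 of 26 immediate early and 14 of 28 stress genes. That share was 15.2% over all genes. DESeq2 called 2, 1 and 4 of these lists higher and 3 of each lower, against 6.62% of all genes called. Of 20 clock genes Per1 fell and Per2, its paralogue, rose, from 9.85 and 8.37 to 68.9 and 31.3 CPM (2.46, SE 0.51). Nfil3, a repressor of clock output, stood at 66.0 and 124 CPM against 31.8 and 18.8 CPM and did not pass (edgeR adjusted p = 0.0673). Egr3 was the 1 gene of 26 immediate early genes that passed, and it fell by 2.10 (45.4 and 67.3 CPM against 14.9 and 11.3 CPM). Hspb1, a small heat shock protein, fell by 3.15, with a wide spread in Control (534 and 2229 CPM against 169 and 142 CPM). Hspa1a, an inducible chaperone, was spread likewise, at 2266 and 6772 CPM against 278 and 943 CPM, and did not pass (adjusted p = 0.0672). The calls of Per2, Egr3 and Hspb1 had edgeR adjusted p-values of 0.0342 to 0.0481. None was left without Control replicate 2 or without GR KO replicate 1 (0.0668 to 0.481), Per2 was lost without Control replicate 1 (0.232), and only Per2 was left without GR KO replicate 2 (0.102 and 0.115 for the others).

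Growth genes did not pass in edgeR. Of 34 genes of the G2 and M phases none was called, 33 had higher values and 32 did not overlap between groups, with a median of 2.42, while both GR KO libraries lay above both Control libraries for 31.6% of all genes. At an unadjusted p under 0.05 there were 18, and DESeq2 called 10 of the 34. The levels were low, with a summed level of 114, 54.3, 463 and 261 CPM. Cenpf and Prc1, which act on chromosomes and spindle, stood at 2.52 and 0.837 CPM against 12.8 and 13.6 CPM and at 5.12 and 0.930 CPM against 31.9 and 20 CPM (edgeR adjusted p = 0.0742 and 0.0962). Ccnd1, cyclin D1, stood at 32.9 and 15.9 CPM against 62.2 and 99.6 CPM (adjusted p = 0.0667), and the inhibitor Cdkn1a at 586 and 807 CPM against 242 and 409 CPM (adjusted p = 0.2). Of 30 S phase genes none passed, with a median of 0.60, 7 at an unadjusted p under 0.05 and 1 called by DESeq2. Macrophage RNA was highest in GR KO replicate 1, which also held the highest summed level of the G2 and M genes. Without that library their median was 1.88.

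Markers of other cells were set beside these results. Of 15 genes of differentiated epidermis and hair shaft 3 fell, Lor, Cst6 and Sprr4, against 0.771% of all genes. Lor, a cornified envelope protein, stood at 43.6 and 22.5 CPM in Control and 0.731 and 0.317 CPM in GR KO (−5.95, SE 0.68), and Cst6, a protease inhibitor of epidermis, at 1245 and 251 CPM against 18.8 and 2.14 CPM (−6.16, SE 1.07). Sprr4 was at 0 in GR KO replicate 2. Among fibroblast markers, Cd34 stood at 275 and 153 CPM against 947 and 943 CPM (2.14, SE 0.34). Lum, a collagen-binding proteoglycan, stood at 1418 and 989 CPM against 3062 and 4955 CPM and did not pass (edgeR adjusted p = 0.0511). None of 14 macrophage markers passed in edgeR (1 at an unadjusted p under 0.05, and 1 by DESeq2), and their median was 2.18, or −2.87 without GR KO replicate 1. Markers of basal keratinocytes (591, 238, 634 and 136 CPM), T cells (103, 142, 79.6 and 230.04 CPM) and Schwann cells (325, 263, 296 and 269 CPM) overlapped between groups. The edgeR adjusted p-values of Lor, Cst6 and Cd34 were 0.0165 to 0.0344. Cd34 was lost without Control replicate 2 (0.213), while Lor and Cst6 were called without each of the 4 libraries. Cst6 and Cd34 were lost in a fit of the 4 libraries alone (0.0704 and 0.08).

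The effect of GR deletion was compared with that of adrenalectomy in the same fit. The Sham and ADX mice were of another strain, had surgery in place of tamoxifen, and share no library with the deletion experiment, so that these differences and the difference of the treatments cannot be told apart. The 2 effects differed for 112 genes (0.477% of those tested), with the deletion effect higher in 82 (0.349%) and lower in 30 (0.128%). Adrenalectomy itself changed 4 genes in edgeR, of which Sox18 and Scnn1g were also called after deletion. Fkbp5 and Tsc22d3 had lower values in both, with changes of −2.77 and −2.74 after deletion and −3.0 and −1.51 after adrenalectomy. Neither change after adrenalectomy passed in edgeR. The difference of the 2 effects did not pass either (edgeR adjusted p = 0.941 and 0.295). For Angptl4 it did pass, since the level was 148 and 143 CPM in Sham and 129 and 205 CPM in ADX (0.20) but fell after deletion (difference −2.90, adjusted p = 0.0312).

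Matrix and sterol genes were among those whose effects differed. Ogn, Postn, Fbln5, Dse, Col5a2, Mmp2 and Timp2 rose after deletion and had values of −0.34 to −1.65 after adrenalectomy, with differences of 2.30 to 4.53 and edgeR adjusted p-values of 0.0245 to 0.0408. Hmgcs1, Cyp51 and Sqle had differences of 3.23, 2.96 and 2.74 (adjusted p 0.0245 to 0.0342). Postn shows how the baselines differ, at 2426 and 4273 CPM in Sham, 1267 and 871 CPM in ADX, 267 and 411 CPM in Control and 1898 and 3103 CPM in GR KO. The Control libraries were the lowest of the 8. Lars2 moved in opposite directions, at 3468 and 3488 CPM in Sham and 8429 and 8180 CPM in ADX (difference −3.05, adjusted p = 0.0408). The change of Lars2 after adrenalectomy did not itself pass in edgeR. Scnn1g and Matn1 fell after deletion but had 0 and 1 and 1 and 2 reads in Sham against 139 and 151 and 57 and 154 in ADX, so their fitted values of 8.45 and 6.58 after adrenalectomy depend on the prior count. Gas6 had higher values in both (1.57 and 1.87) and the difference did not pass (−0.30, edgeR adjusted p = 0.864). The change of Gas6 after deletion did not itself pass in edgeR. The 112 rested on single libraries, with 3 without Sham replicate 2, 3 without Control replicate 2, 19 without ADX replicate 2, 26 without Control replicate 1 and 221 without GR KO replicate 2, of which 1, 2, 10, 21 and 94 were among the 112.

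**Figure D5:**
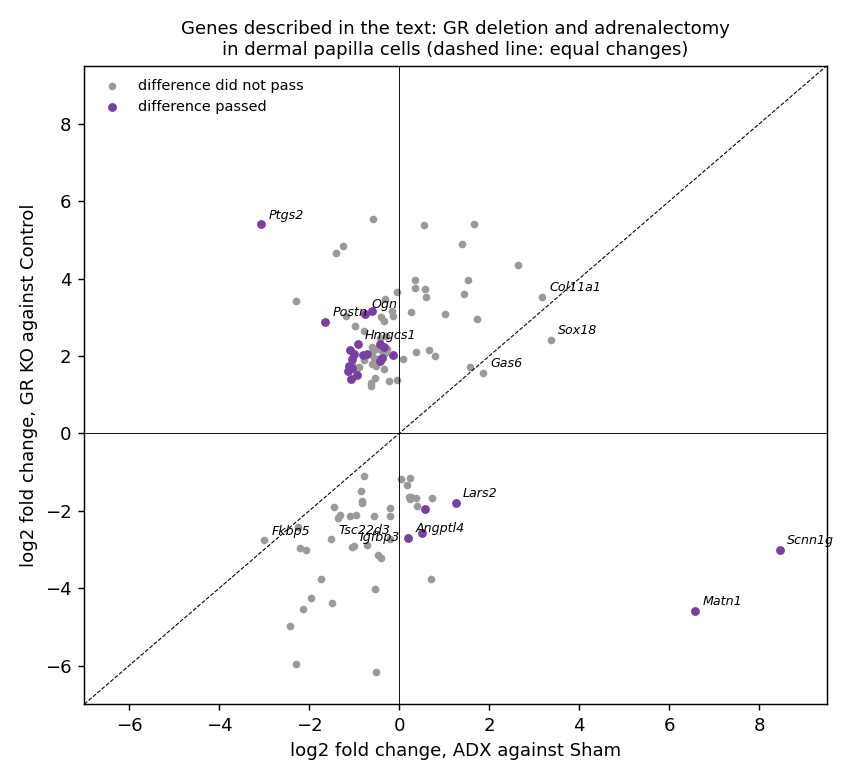
Log2 fold change of GR KO over Control (vertical axis) against that of ADX over Sham (horizontal axis) for the genes whose change the text gives. Purple points are genes whose 2 changes differed in edgeR and grey points the others, and the dashed line marks equal changes. Fkbp5, Sox18, Gas6 and Col11a1 lie near the dashed line, and Scnn1g and Matn1 lie far below it.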

How the data were processed

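RNA-seq was made from DP purified by flow cytometry, with the SMART-Seq v4 and Nextera XT kits, per the labels' protocols; these kits do not mark strand. The authors deposited estimated counts per transcript for each library, and the submitters' processing notes name Salmon, the build mm10 and DESeq2 1.22.2. The Salmon version and the annotation are not given in the sources used here. Of 134967 transcripts, 133201 matched GENCODE M21 with their version, 1616 without it and 150 not at all. The deposited estimated counts were summed to 52958 gene symbols and rounded to whole numbers.

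All 8 DP libraries entered one edgeR 4.0.16 fit (R 4.3.3) with a mean per group, TMM scaling and filterByExpr, which kept 23463 genes. The quasi-likelihood test was used with Benjamini-Hochberg adjustment at 0.05 (biological coefficient of variation 53.97%, 4 residual degrees of freedom). CPM use the TMM library sizes. DESeq2 1.42.0, other scaling, filters, offsets and left-out libraries were alternatives. The script was tested on simulated data. Where only 2 libraries a group are available, their number limits the precision.

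Genes were named by size of change, smallest p or level among called protein-coding genes without predicted names or near-identical copies, above a mean level of 5 CPM in whichever group was higher, and from 46 gene lists. Nr3c1, Gas6, Pros1 and Axl were always named. Members, lists and tests were chosen with earlier results of these data known.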

Additional observations from a re-analysis of the deposited data

Results flagged for a closer look

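The effects of GR deletion and of adrenalectomy differed, by a test of the difference itself in edgeR, for 36 genes listed here. They are genes given a fold change in the text and genes named because their difference passed. For the latter the choice fixed the outcome, so their number supports nothing further. Over all genes tested the effects differed for 0.477%. Each value is the log2 change after deletion minus that after adrenalectomy, so a positive value means a higher change after deletion. Among matrix genes, enzymes and matrix-binding proteins, the difference was 2.30 for Col5a2, 2.31 for Txndc5, 3.87 for Ogn, 4.53 for Postn, 2.57 for Fbln5, 2.17 for Abi3bp, 3.05 for Dse, −11.16 for Matn1, 2.74 for Mmp2, 2.45 for Timp2 and 2.78 for Cpxm1. Among genes of sterol synthesis, the difference was 3.23 for Hmgcs1, 2.96 for Cyp51 and 2.74 for Sqle. Among receptors, channels and secreted ligands, the difference was 2.83 for Lpar1, 2.86 for Calcrl, −11.45 for Scnn1g, 2.47 for Pros1, −2.90 for Angptl4 and −5.19 for Ramp3. Among genes of inflammation and protease inhibition, the difference was 8.48 for Ptgs2, 3.95 for Serpinb1a, 8.15 for Serpinb2 and 4.78 for Serpina3n. Among the remaining genes, the difference was 2.72 for Pqlc3, 3.77 for Dab2, −3.09 for Srcin1, −2.53 for Rps15a, −3.05 for Lars2, 3.24 for Cd34, −4.62 for Nat8l, −3.23 for Rgs3, −4.74 for Extl1, −6.40 for Sncb, 5.15 for Camkk1 and 4.0 for Aldh1a1. The adjusted p-values of these differences lay between 0.0156 and 0.0463. Ramp3, a partner of Calcrl at the cell surface, went the opposite way to it. Scnn1g and Matn1 rest on 0 to 2 reads in Sham. Strain, surgery and tamoxifen differ between the experiments and cannot be told apart from the treatments.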

How the results depend on the processing

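No direction reversed for the genes given a fold change in the text under the alternatives run. Over all of them, 1146 gene results kept their side of the threshold, 522 lost the call and 72 gained it. Of 102 called genes in the text, 89 were called with median-of-ratios scaling, 97 among protein-coding genes only, 42 with the GC and length offset, 37 in the fit of the 4 libraries alone and 5 without Control replicate 2.

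The counts of called, risen and fallen genes (361, 180 and 181) were 1456, 749 and 707 without the filter, 1554, 802 and 752 by DESeq2, 108, 41 and 67 with the GC and length offset, 123, 48 and 75 with that offset and the replicate block, and 142, 70 and 72 in the 4 libraries alone. Among protein-coding genes only 361 fell. Leaving out 1 library gave 19 to 226, 11 to 138 and 8 to 180.

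The difference from adrenalectomy (112, of which 82 higher and 30 lower) gave 1305, 792 and 513 without the filter, 1234, 735 and 499 by DESeq2, 18, 8 and 10 with the GC and length offset, and 27, 12 and 15 with offset and replicate block. With median-of-ratios scaling 46 were higher. Among protein-coding genes only there were 197, with 122 lower. Leaving out 1 library gave 3 to 221, 1 to 167 and 1 to 54. The cause of these changes was not tested.

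The replicate block gave 470 called genes after deletion (229 risen, 241 fallen), 350 of them among the 361, and 196 for the difference (129 higher, 67 lower). The labels share only a number between groups. With 2 pairs, the deviations of same-numbered Control and GR KO libraries correlated at 0.301 over 14871 genes. With the block, 100 of the 102 calls were left, without those of Adamts19 and Musk.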

Other observations

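The Sham libraries, from wild type DP of another strain, were set beside the Control libraries as a description. Of the 180 genes that rose after GR deletion, both Sham libraries lay above both Control libraries for 110 (61.1%), against 33.4% of all genes tested. Of the 181 genes that fell, both Sham libraries lay below both Control libraries for 132 (72.9%), against 19.4% of all genes. The Control values themselves chose these genes, so the shares support nothing further. Genes of the retinoic acid pathway, not described above, had a median log2 change of 0.60 after deletion, and none of 15 passed in edgeR, with 5 at an unadjusted p under 0.05 and with 2 higher and 2 lower by DESeq2.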
